A study of Homo sapiens with 8 samples.

Results

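The genes that place peptides on MHC class I at the cell surface were examined with and without silencing of KHSRP in KYSE850, an established line of human esophageal squamous carcinoma cells. KHSRP encodes an RNA-binding protein that acts in mRNA decay and in microRNA maturation. The 9 genes were HLA-B, HLA-C, HLA-E, HLA-F, B2M, TAP1, TAP2, PSMB8 and PSMB9, and they were taken by name, with every probe whose RefSeq accession belongs to one of them. This gave 12 of 42405 non-control probes, of which 11 were bright enough to be tested, so that all 9 genes had at least 1 tested probe among 12125 tested genes. The data are 8 one-colour Agilent arrays of mRNA, 4 from cells treated with a control siRNA and 4 from cells treated with siRNA against KHSRP. All 8 samples were the same unmodified line, and the labels name no other agent, interferon included. The labels give neither the time after transfection nor which of the KHSRP siRNAs listed in the methods went onto which array, and they do not say whether the arrays of a group came from separate cultures, so that p-values measure the spread between these samples, which may be technical.

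MHC class I molecules show short peptides from inside the cell to CD8 T cells and to natural killer cells. The peptides are cut by the proteasome, carried into the endoplasmic reticulum by the TAP1-TAP2 transporter and loaded onto a heavy chain, such as HLA-B, HLA-C, HLA-E or HLA-F, that is held by B2M, the shared light chain. PSMB8 and PSMB9 are catalytic subunits that replace their constitutive counterparts in the immunoproteasome, and interferons induce most of these genes together in epithelial cells.

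Of the 9 genes, 8 lie on chromosome 6 and B2M on chromosome 15. TAP2, PSMB8, TAP1 and PSMB9 are neighbours within the class II region of the MHC. The start-site windows of 5 of the genes are shown, since factors activated by interferon act on promoters of this pathway through known motifs. Each runs from 250 bases before to 50 bases after a gene start in the RefSeq annotation of GRCh38.p14, read 5′ to 3′ on the strand of the gene, and capitals mark motif matches. The core searched as the interferon-stimulated response element (ISRE) was GAAA, any 2 bases, and GAAA again. That searched as the gamma-activated site (GAS) was TTCNNNGAA. Both were searched on both strands, and no ISRE match overlapped a GAS match in the windows shown.
B2M (chr15:44711267-44711566, plus strand): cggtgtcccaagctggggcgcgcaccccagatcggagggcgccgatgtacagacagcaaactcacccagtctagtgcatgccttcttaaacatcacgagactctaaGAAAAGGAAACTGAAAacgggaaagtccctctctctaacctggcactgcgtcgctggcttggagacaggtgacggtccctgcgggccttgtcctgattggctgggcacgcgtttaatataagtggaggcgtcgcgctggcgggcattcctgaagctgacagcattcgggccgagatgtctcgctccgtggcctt
TAP1 (chr6:32853655-32853954, minus strand): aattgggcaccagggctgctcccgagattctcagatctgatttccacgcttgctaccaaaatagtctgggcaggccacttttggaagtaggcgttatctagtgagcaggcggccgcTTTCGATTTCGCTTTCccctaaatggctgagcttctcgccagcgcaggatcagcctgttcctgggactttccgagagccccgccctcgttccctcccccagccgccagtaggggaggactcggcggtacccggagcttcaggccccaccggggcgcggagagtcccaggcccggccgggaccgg
PSMB9 (chr6:32853942-32854241, plus strand): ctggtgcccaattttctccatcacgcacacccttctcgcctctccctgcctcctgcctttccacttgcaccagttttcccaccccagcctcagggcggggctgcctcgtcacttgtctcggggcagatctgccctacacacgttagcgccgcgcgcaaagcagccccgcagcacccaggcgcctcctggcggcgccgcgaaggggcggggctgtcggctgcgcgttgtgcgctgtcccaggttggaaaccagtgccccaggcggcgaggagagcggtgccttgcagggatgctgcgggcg
PSMB8 (chr6:32843998-32844297, minus strand): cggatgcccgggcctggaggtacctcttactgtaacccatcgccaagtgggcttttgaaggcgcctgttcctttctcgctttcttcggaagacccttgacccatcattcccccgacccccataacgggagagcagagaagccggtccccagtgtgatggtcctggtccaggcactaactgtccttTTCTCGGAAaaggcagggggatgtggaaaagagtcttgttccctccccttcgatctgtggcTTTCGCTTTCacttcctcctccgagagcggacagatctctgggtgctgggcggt
TAP2 (chr6:32838690-32838989, minus strand): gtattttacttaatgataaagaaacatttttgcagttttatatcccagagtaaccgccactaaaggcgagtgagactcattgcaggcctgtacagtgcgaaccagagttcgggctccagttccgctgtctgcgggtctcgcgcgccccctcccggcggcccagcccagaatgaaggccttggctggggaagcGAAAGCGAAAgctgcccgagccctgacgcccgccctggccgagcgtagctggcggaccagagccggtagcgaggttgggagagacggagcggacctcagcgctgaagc

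The RefSeq table held 10 such windows for 8 of the 9 genes. An ISRE core was in 5 of the 10 windows, belonging to HLA-F, B2M, TAP1, TAP2 and PSMB8, against 3.57% of 35116 promoter windows of the same length. In the windows shown, the matches began 144 bases before the start of B2M, 134 before that of TAP1, 58 before that of TAP2 and 4 before that of PSMB8. A further window each of TAP1 and PSMB8, at another start, held no ISRE match. The windows of HLA-B and HLA-C held no match to either motif. Only these exact letters were searched, so that variants of the motifs in these windows would not be marked. In B2M and TAP1 the run in capitals holds 2 overlapping matches. A GAS match was in 2 of the 10 windows, against 7.66% of all windows. These were the PSMB8 window shown, where it began 65 bases before the start, and the further TAP1 window. TAP1 and PSMB9 start 488 bases apart and are read in opposite directions, and their windows share 13 bases. The PSMB9 window held no match to either motif, which says only that these letters are not in it.

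KHSRP mRNA was checked first. At probe A_23_P16157 the level was 6.03, 5.81, 6.39 and 6.08 on control siRNA replicates 1 to 4 and 2.52, 2.58, 2.88 and 2.85 on KHSRP siRNA replicates 1 to 4. A level is the log2 signal of a probe relative to the 75th percentile of its array. The groups lay far apart. The log2 fold change, KHSRP siRNA minus control siRNA, was -3.37 ± 0.16 (SE), leaving 9.66% of the signal (exact permutation test, two-sided, p = 0.0286, the smallest that 4 against 4 arrays allow).

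Between 45.1% and 49.4% of the probes were well above background on each array, no spot was saturated, and each of the 2 slides held 2 arrays of each group. Squamous epithelial markers were detected as the label of the line implies, with 8 of 8 well above background on all 8 arrays, and 0 of 3 endothelial markers were detected on any array. Of 6 leukocyte markers with a probe, CD79A and CD14 were above background on all 8 arrays, CD3E on 5, PTPRC on 4, and the other two on none. Of 4 fibroblast markers, COL1A1 was well above background on all 8 arrays and the other 3 on none. In such bulk RNA, less RNA per cell and fewer cells with the RNA cannot be told apart. The deposited value table and the scanner files disagree on which KHSRP siRNA array is number 3 and which is number 4. Both arrays belong to the same group, so that no group mean is affected, and the numbers of the scanner files are used here. Pairs of arrays, where given, follow the numbers of the value table, which join control 1 with KHSRP 1, control 2 with KHSRP 2, control 3 with KHSRP 4 and control 4 with KHSRP 3.

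None of the 9 genes passed the test between the groups. All 11 tested probes were well above background on all 8 arrays, and at each of them the 4 control and the 4 KHSRP levels overlapped. Over all tested probes, 5.54% were called by limma at an adjusted p under 0.05 (1039 of 18761), and 6.09% had all 4 KHSRP arrays above all 4 controls. Among the 11 probes both counts were 0, and 0 had an unadjusted p under 0.05, as 19.6% of all tested probes did. All 9 genes, each taken at its brightest probe, had a fold change above 0, with a median of 0.11 on the log2 scale and a range from 0.03 to 0.36. The median over all 12125 tested genes was 0.0058, and 50.9% of them were above 0. The direction of single genes did not hold for HLA-B, HLA-C and HLA-F, whose fold changes turned negative when arrays were scaled to the median, a scaling that moved the median of all probes from 0.01 to -0.06 and left 8 of the 11 probes above 0. It also moved the share of higher among all called probes from 34.6% to 17.2%. Without KHSRP replicate 1, 5 of the 11 probes were above 0.

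The heavy chains HLA-B and HLA-C present peptides to CD8 T cells. HLA-B at probe A_33_P3379947 stood at 5.33, 4.52, 4.97 and 4.63 on control replicates 1 to 4 and at 5.40, 4.59, 4.59 and 4.99 on KHSRP replicates 1 to 4. In each group replicate 1 was the highest, and the spread within a group was far wider than the difference between groups. The fold change was 0.03 ± 0.24 (SE, adjusted p = 0.972), with a 95% interval from -0.52 to 0.58. The other HLA-B probe, A_33_P3424800, stood at 3.59, 3.78, 3.39 and 3.66 with control siRNA and at 4.72, 3.53, 3.65 and 3.42 with KHSRP siRNA. Here KHSRP replicate 1 stood above all other arrays, and the other 3 KHSRP arrays lay inside the control range. Its fold change was 0.23 ± 0.28 (SE, adjusted p = 0.754), 0.44 on the slide that holds this array and 0.01 on the other slide. HLA-C at A_33_P3330109 stood at 6.61, 6.13, 6.20 and 5.90 with control siRNA and at 6.47, 6.13, 5.88 and 6.51 with KHSRP siRNA. KHSRP replicate 3 lay just below the lowest control, and the other 3 KHSRP arrays lay inside the control range. The fold change was 0.04 ± 0.20 (SE, adjusted p = 0.953).

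HLA-E, a heavy chain that is read mainly by natural killer cells, stood at 5.02, 4.64, 4.81 and 4.48 with control siRNA and at 5.07, 4.80, 4.58 and 4.95 with KHSRP siRNA. The KHSRP array was the higher one in all 4 pairs, by 0.05 to 0.16, while the levels within each group ranged more widely. The fold change was 0.11 ± 0.16 (SE, adjusted p = 0.795). HLA-F, a less widely expressed heavy chain, was read by a pair of probes. At A_33_P3379939 it stood at 5.43, 5.16, 5.18 and 5.08 with control siRNA and at 5.59, 5.24, 4.96 and 5.25 with KHSRP siRNA, and the fold change was 0.05 ± 0.16 (SE, adjusted p = 0.929). At A_33_P3379967, whose accession is another HLA-F transcript, it stood at -0.41, -1.09, -0.67 and -1.13 with control siRNA and at -0.23, -0.95, -1.29 and -0.42 with KHSRP siRNA. Replicate 1 was the highest in each group at both probes, and KHSRP replicate 3 the lowest of its group. The fold change at the latter was 0.10 ± 0.27 (SE, adjusted p = 0.904). The HLA class I genes are close paralogs, and how far these probes read each other's transcripts was not tested.

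B2M, without which heavy chains do not reach the surface, was read by 10 spots per array. It stood at 6.50, 5.95, 6.53 and 5.98 with control siRNA and at 6.65, 6.15, 5.95 and 6.78 with KHSRP siRNA. Control replicates 1 and 3 and KHSRP replicates 1 and 4 were high, and the other 4 arrays were low. The fold change was 0.14 ± 0.23 (SE, adjusted p = 0.830, 95% interval from -0.39 to 0.67).

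TAP1, which pairs with TAP2 to form the peptide transporter, had the narrowest spread of the 11 probes. It stood at 3.90, 3.80, 3.63 and 3.70 with control siRNA and at 3.91, 4.09, 3.70 and 3.74 with KHSRP siRNA. KHSRP replicate 2 was the highest and control replicate 3 the lowest. The fold change was 0.11 ± 0.13 (SE, adjusted p = 0.746), and the pooled within-group SD of 0.15 was at the 18th percentile of all tested probes. TAP2 at A_33_P3214650 stood at 1.15, 1.22, 1.12 and 1.37 with control siRNA and at 1.19, 1.68, 1.63 and 1.44 with KHSRP siRNA. KHSRP replicates 2, 3 and 4 lay above all 4 controls, and KHSRP replicate 1 lay inside the control range. The fold change of 0.27 ± 0.14 (SE) had, over all 8 arrays, the lowest adjusted p of the 11 probes, 0.338, with a 95% interval from -0.04 to 0.58. It was 0.25 on one slide and 0.29 on the other, and the KHSRP array was higher in 4 of 4 pairs. Another TAP2 probe, A_23_P368067, whose accession is a different TAP2 transcript, was too dim to be tested. Of the 4 control arrays 3 detected it above background, and of the 4 KHSRP arrays 0 did. It stood at -2.78, -3.32, -2.73 and -5.24 with control siRNA and at -3.52, -4.71, -5.04 and -4.17 with KHSRP siRNA. With each KHSRP array set no lower than its dimmest probe above background, the KHSRP mean was 1.34-fold below the control mean. That control mean includes control replicate 4 at -5.24, the lowest of the 8 arrays, so that this is not a firm bound. The groups overlapped, and this dim probe gives no direction for TAP2.

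**Figure D1:**
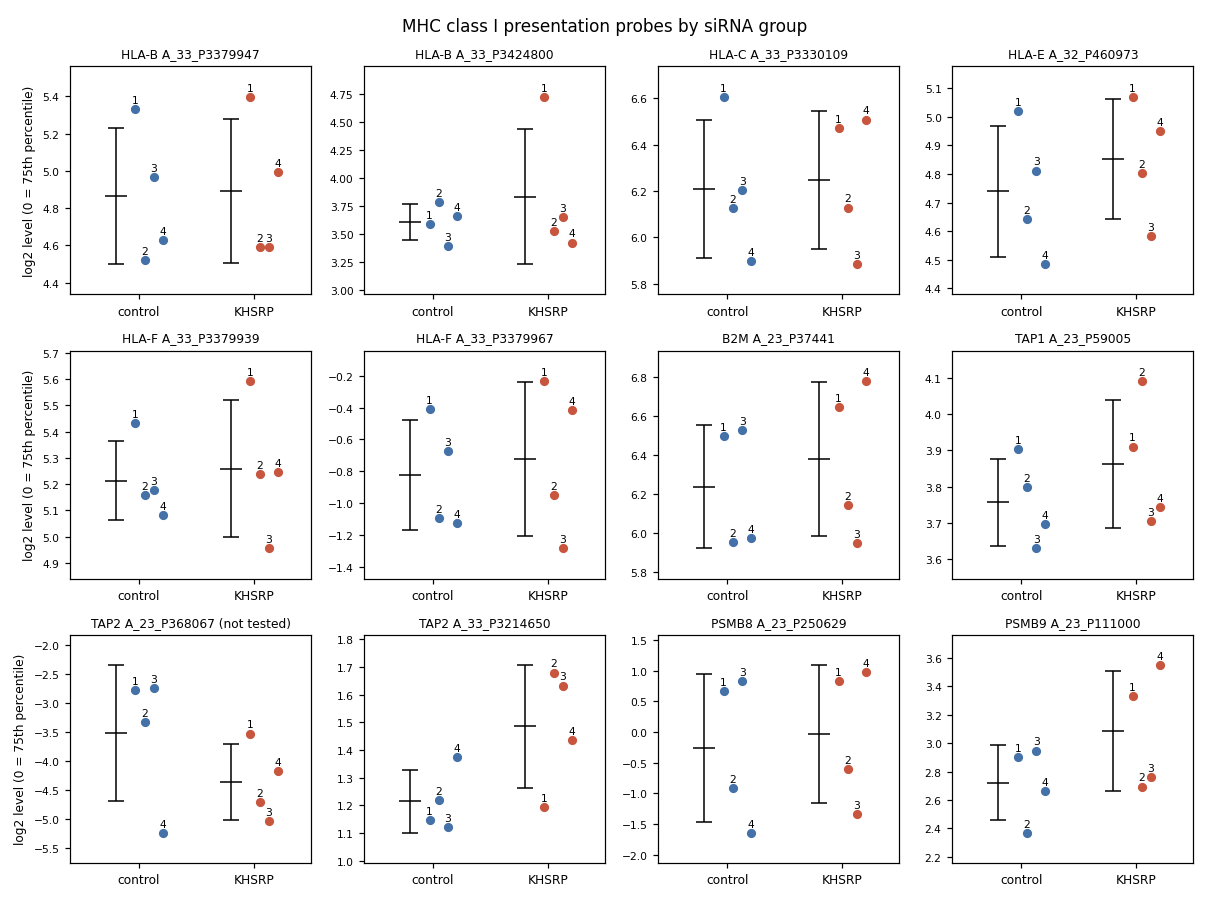
Log2 level of each of the 12 probes (y axis, 0 is the 75th percentile of the array; the scale differs between panels) in control siRNA (blue) and KHSRP siRNA (red) arrays, numbered by replicate, with the mean and SD of each group (n = 4) as a bar to the left of the points. The groups overlap in every panel, and PSMB8 shows a wide spread in both, from -1.64 to 0.83 and from -1.33 to 0.98.

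The immunoproteasome subunit PSMB8 differed more between arrays of a group than between groups. At A_23_P250629 it stood at 0.67, -0.92, 0.83 and -1.64 on control replicates 1 to 4 and at 0.83, -0.61, -1.33 and 0.98 on KHSRP replicates 1 to 4. Control replicates 1 and 3 and KHSRP replicates 1 and 4 were high and the other 4 were low, with no array between. The highest control array was 5.56-fold above the lowest, and the highest KHSRP array 4.97-fold above the lowest. The pooled within-group SD was 1.17, at the 98.6th percentile of all tested probes. Group means were -0.26 ± 1.21 (SD, n = 4) and -0.03 ± 1.13 (SD, n = 4), and the fold change was 0.23 ± 0.70 (SE, adjusted p = 0.919, 95% interval from -1.37 to 1.83). Leaving out 1 array at a time moved it between -0.23 and 0.66, so that it had no settled direction without the pairs. Within pairs the KHSRP array was higher by 0.16, 0.31, 0.15 and 0.31. With the pairs as a block the fold change of 0.23 had an SE of 0.07 and a 95% interval from 0.07 to 0.40. The adjusted p in limma was 0.0495, just under the threshold. This block was chosen because its pairs deviate together in these same data, so that its p-values here and below are not an independent test. With the numbers of the scanner files as the block, the adjusted p of PSMB8 was 0.933.

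PSMB9, the partner subunit, stood at 2.90, 2.37, 2.95 and 2.66 with control siRNA and at 3.33, 2.69, 2.76 and 3.55 with KHSRP siRNA. KHSRP replicates 1 and 4 lay above all controls, and KHSRP replicates 2 and 3 lay inside the control range. The fold change of 0.36 ± 0.23 (SE, adjusted p = 0.451) was 0.38 on one slide and 0.35 on the other. Leaving out 1 array moved it between 0.21, without KHSRP replicate 4, and 0.49, without KHSRP replicate 2. Within pairs the KHSRP array was higher by 0.43, 0.32, 0.60 and 0.10. With the pairs as a block the adjusted p was 0.0397, with a 95% interval from 0.12 to 0.60.

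The blocked fit called PSMB8 and PSMB9 and no other of the 11 probes. It called 14.8% of all tested probes as higher, so that 2 of 11 is near the background. PSMB8 was called in 0 of 4 fits that left out a pair (adjusted p from 0.0987 to 0.153). PSMB9 was called in 1 of 4, that without the pair of control 4 and KHSRP 3 (adjusted p = 0.0405), and in none of the others (adjusted p from 0.0829 to 0.121). TAP2 missed the threshold in the blocked fit (adjusted p = 0.063, 95% interval from 0.06 to 0.48). Of the 11 probes, 5 were higher with KHSRP siRNA in 4 of 4 pairs, those of HLA-E, TAP1, TAP2, PSMB8 and PSMB9, against 25.8% of all tested probes. With the numbers of the scanner files as the block, 0 of the 11 were called.

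**Figure D2:**
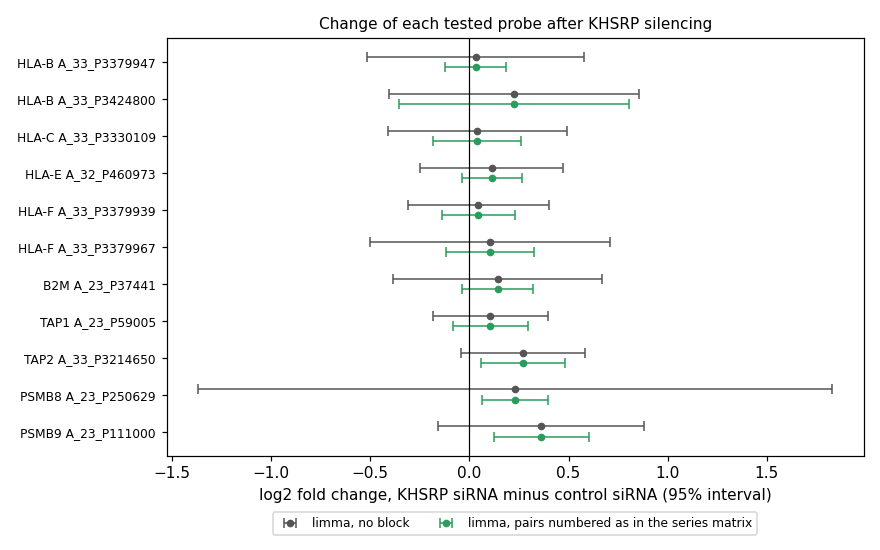
Log2 fold change of each of the 11 tested probes, KHSRP siRNA minus control siRNA (x axis), with its 95% interval from limma without a block (grey) and with the pairs of the value table as a block (green). All 11 estimates lie right of 0 (8 of 11 do with arrays scaled to the median), all grey intervals cross 0, and the green intervals of TAP2, PSMB8 and PSMB9 do not, of which PSMB8 and PSMB9 passed the adjusted threshold.

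The spread within groups was shared among many of the genes. At 8 of the 11 probes the highest control array was replicate 1 or 3 and the lowest was 2 or 4, against 35.3% of all tested probes. At 8 of the 11 the highest KHSRP array was replicate 1 or 4 and the lowest was 2 or 3, against 35.1% of all. Control replicate 1 was the highest of its group at 6 of the 11 (14% of all tested probes), and KHSRP replicate 3 was the lowest of its group at 8 (25.1% of all). Both splits of the arrays are those described above at B2M and PSMB8, which are among the 11 probes counted. These probes share arrays, scaling and in part sequence, and the counts are a description. The median pooled SD of the 11 probes was 0.35, from 0.15 for TAP1 to 1.17 for PSMB8, and 7 of the 11 were above the median of all tested probes, 0.26. The tested probes of TAP1 and TAP2 and the HLA-B probe A_33_P3424800 stood outside this order in both groups. At that HLA-B probe control replicate 2 was the highest control and KHSRP replicate 4 the lowest KHSRP array, unlike at the other HLA-B probe. At TAP2, control replicate 4 was the highest control and KHSRP replicate 1 the lowest KHSRP array.

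**Figure D3:**
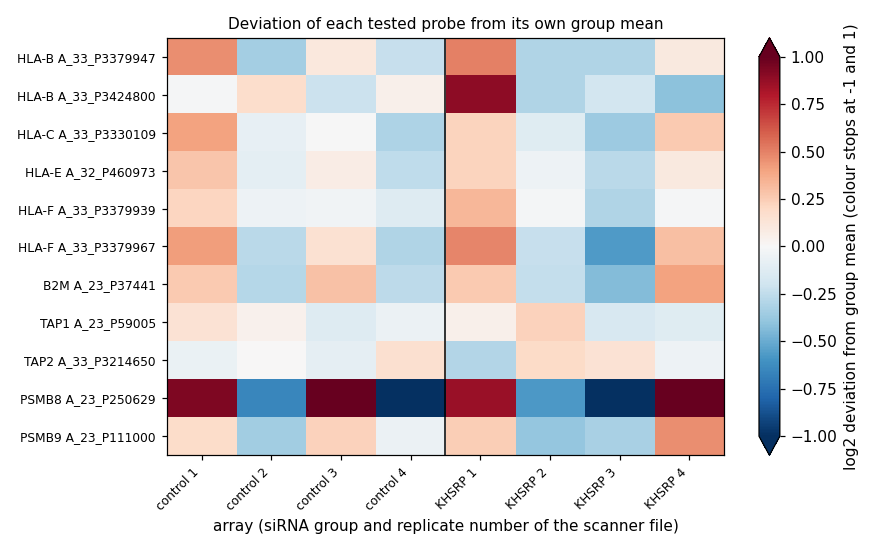
Deviation of each tested probe (rows) on each array (columns, scanner file numbers) from the mean of its own group, on the log2 scale, with colours that stop at -1 and 1. Control 1 and KHSRP 1 are red (above the group mean) and KHSRP 3 is blue in most rows, and PSMB8 shows the deepest colours.

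The profile of the 9 genes was taken as the mean of their levels after each was centred on its 8 arrays. It stood at 0.24, -0.28, 0.10 and -0.36 on control replicates 1 to 4 and at 0.34, -0.07, -0.29 and 0.31 on KHSRP replicates 1 to 4. Among the genes themselves, B2M and HLA-E lay closest to it, each with a root mean square difference of 0.09 over the 8 arrays. PSMB8 lay farthest, at 0.76, and TAP2 came next, at 0.40. This measure counts the size of swings as well as their order. PSMB8 was high and low on the same arrays as the profile, with wider swings, while TAP2 followed another order. Each of the 9 genes is part of the profile, and the wide swings of PSMB8 weigh in it. The likeness of PSMB8 to it is therefore in part built in, and a profile without PSMB8 was not taken. Among 12116 other tested genes, whose median difference was 0.40, the 5 closest were ZDHHC12, TBC1D16, PLOD3, TMEM205 and APLP2, each at 0.07. None of the 5 was called between the groups (adjusted p from 0.655 to 0.862).

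Of the 16 genes in the list of other class I and class I-like genes, 10 were tested and 0 were called, with a median fold change of -0.03. None had an unadjusted p under 0.05, as 19.6% of all tested probes did. With the pairs as a block, 1 of the 10 was called higher and 1 lower. Of all tested probes that fit called 14.8% higher and 15.3% lower. HLA-G, whose protein is known from the placenta, was chosen after its values were seen. It had a probe above background on all 8 arrays, at 6.52 to 7.02, and which class I transcripts that probe read was not tested.

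The peptide-loading complex holds the empty class I molecule beside the transporter until a peptide fits. Of the 15 genes for peptide loading and trimming, 14 were tested, and 1 was called, lower. The median fold change was -0.21, with 3 of 14 above 0 and 7 of 14 with an unadjusted p under 0.05. Over all tested probes 5.54% were called and 19.6% had an unadjusted p under 0.05, and 50.9% of all tested genes were above 0. The called gene was HSPA5, the endoplasmic reticulum chaperone also known as BiP, which acts on many proteins besides class I. It stood at 3.80, 4.07, 4.01 and 3.97 with control siRNA and at 3.09, 3.13, 3.22 and 3.41 with KHSRP siRNA, so that the groups did not overlap. It fell by 0.75 on the log2 scale (SE 0.12, adjusted p = 0.010). TAPBP, the tapasin gene, which bridges TAP and the heavy chain, stood at 3.49, 3.35, 3.52 and 3.36 with control siRNA and at 3.87, 3.61, 3.75 and 3.94 with KHSRP siRNA at its brightest probe. All 4 KHSRP arrays lay above all 4 controls. The fold change was 0.37 ± 0.11 (SE, adjusted p = 0.112), and it was called with the pairs as a block (adjusted p = 0.011). At its other two probes the fold changes were 0.23 and 0.17 (adjusted p = 0.363 and 0.486), and neither was called with the block. With that block the list had 1 gene called higher and 5 lower, where 14.8% of all tested probes were called higher and 15.3% lower.

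The 20 other proteasome genes were all tested, and 0 were called, with a median fold change of -0.06, 5 of 20 above 0 and 1 with an unadjusted p under 0.05. Over all tested genes 50.9% were above 0, and 19.6% of all tested probes had an unadjusted p under 0.05. With the pairs as a block, 1 was called, lower, as were 15.3% of all tested probes. PSMB10, the remaining immunoproteasome subunit, stood at 4.70, 4.56, 4.68 and 5.20 with control siRNA and at 4.75, 5.18, 5.43 and 4.99 with KHSRP siRNA. Its fold change was 0.30 ± 0.19 (SE, adjusted p = 0.459). Control replicate 4 and KHSRP replicate 3 were its highest arrays, and these were the lowest of their groups for PSMB8.

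Class I genes are switched on through NLRC5 and the RFX factors and, downstream of interferon, through factors such as IRF1. Of 31 such regulators and interferon signalling genes, 27 were tested, 0 were called higher and 2 lower. The median fold change was 0.05, with 15 of 27 above 0 and 4 with an unadjusted p under 0.05. Among all tested probes, 5.54% were called and 19.6% had an unadjusted p under 0.05, and 50.9% of all tested genes were above 0. RFX5, a subunit of the factor that binds class I and class II promoters, stood at 0.87, 1.02, 0.90 and 1.103 with control siRNA and at -0.09, 0.15, 0.31 and -0.08 with KHSRP siRNA at A_33_P3382162. It fell by 0.90 (SE 0.13, adjusted p = 0.0067). At its other probe, A_24_P20032, the fold change was -0.48 (adjusted p = 0.158), which was called with the pairs as a block. CREB1, a factor that responds to cyclic AMP and binds class I promoters together with RFX, stood at -1.09, -1.09, -1.26 and -1.27 with control siRNA and at -1.76, -1.91, -1.87 and -2.70 with KHSRP siRNA. KHSRP replicate 4 lay far below the other 3 KHSRP arrays, and CREB1 fell by 0.88 (SE 0.21, adjusted p = 0.045). The CREB1 call held in 1 of 8 fits that left out an array, that without KHSRP replicate 4 (other adjusted p from 0.061 to 0.125), and its fold change was -0.31 with normexp background correction. IRF1, which binds ISRE sequences, had a fold change of 0.14 ± 0.15 (SE, adjusted p = 0.694). NLRC5 was not tested, since its brighter probe was well above background on 3 control and 3 KHSRP arrays. With the pairs as a block, 2 genes of the list were called higher and 5 lower. Over all tested probes, that fit called 14.8% higher and 15.3% lower.

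MHC class II presents peptides from outside the cell and is mostly held to immune cells. Of 17 of its genes, 6 were tested and 0 were called, with a median fold change of -0.17. An unadjusted p under 0.05 was found for 2 of the 6, against 19.6% of all tested probes. With the pairs as a block, 1 was called higher and 2 lower. That fit called 14.8% of all tested probes higher and 15.3% lower. HLA-DOB, the gene next to TAP2 on chromosome 6, was chosen after its values were seen. It stood at -2.60, -2.07, -1.97 and -2.74 with control siRNA and at -2.92, -3.42, -3.15 and -3.16 with KHSRP siRNA, with no overlap between the groups. All 4 control arrays but only 2 of 4 KHSRP arrays read it well above background, so that part of the KHSRP levels lay near background. Its fold change was -0.82 ± 0.20 (SE, adjusted p = 0.056), and it was one of the genes called lower with the pairs as a block (adjusted p = 0.0321).

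**Figure D4:**
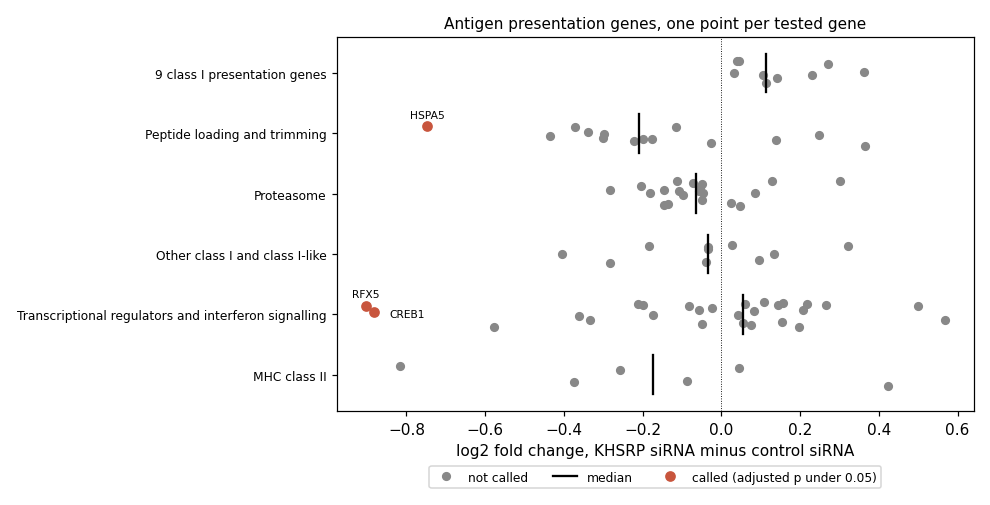
Log2 fold change, KHSRP siRNA minus control siRNA (x axis), of each tested gene at its brightest probe, for the 9 class I presentation genes and the 5 lists (rows), with the median of each row as a black line and genes called at an adjusted p under 0.05 in red. The 9 genes lie between 0.03 and 0.36, and the 3 called genes, HSPA5, RFX5 and CREB1, all lie left of 0.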

How the data were processed

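Messenger RNA of KYSE850 cells was measured on 8 one-colour arrays, grouped by their labels. The authors scanned the arrays, and the deposited files hold linear fluorescence intensity from Feature Extraction (11.5.1.1 per the file headers, 12.6 per the submitters' processing notes), background-subtracted and not scaled between arrays. A table of log2 values deposited by the authors, made with GeneSpring according to the methods, served as an alternative. Control spots and outlier spots were left out, and log2 signals were averaged per probe and set relative to the 75th percentile of each array. Testing needed a share of at least 0.5 of a probe's spots to be marked well above background by the scanner software on all 4 arrays of a group. The test between groups was that of limma 3.58.1 (R 4.3.3), two-sided and without a block. P-values were adjusted over the 18761 tested probes by the method of Benjamini and Hochberg, with a call at 0.05. Other steps used Python 3.11.15. Probes were named through RefSeq accessions (27241 of 42405 matched), and promoter windows came from RefSeq, GRCh38.p14. The brightest tested probe stood for a gene.

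Columns KHSRP 3 and 4 of the value table match the scanner files of KHSRP 4 and 3. With the numbers of the value table, deviations from group means correlated at 0.57, 0.48, 0.86 and 0.86 in the same-numbered pairs (17229 probes), and with those of the scanner files at 0.57, 0.48, -0.69 and -0.67. The first numbering was therefore also fitted as a block, and the labels do not settle which is right.

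The 9 genes, the lists and the tests were chosen with earlier results of these data known. Genes named outside the 9 are KHSRP, the called genes of each list (up to 3 per direction), NLRC5, IRF1, TAPBP and PSMB10, and the 5 genes with the profile closest to that of the 9. HLA-G and HLA-DOB were added after their values were seen. Some genes of the lists are not reported here and were left out of the counts of their lists. The alternatives covered scaling (quantile, median, detected probes), normexp background correction (offset 50), the filter on dim probes, blocks by slide or replicate number, array weights, the methods' t-test, a robust variance with an intensity trend, and leaving out each array. The fit was tested on simulated data.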

Additional observations from a re-analysis of the deposited data

Results flagged for a closer look

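In 54 groups of 4 arrays, the named probes taken by siRNA group, 2 held 1 array far from the other 3, by Dixon's criterion for the gap as a share of the whole range of the group. Chance alone marks about 1 in 20 such groups. At the CREB1 probe A_23_P79231, KHSRP siRNA replicate 4 stood at -2.70 and the nearest of the other 3 KHSRP arrays at -1.91, a gap of 0.835 of the range. At the dimmer KHSRP probe A_24_P134235, control siRNA replicate 2 stood at -1.86 and the nearest at -1.098 (0.832 of the range).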

How the results depend on the processing

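Each of the 9 genes stayed uncalled in all alternatives but the replicate block with the numbering of the series matrix, which called 2 of the 11 probes, PSMB8 and PSMB9, and 5644 probes in all. The count of all called probes, 1039, was 570 with median scaling, 319 with no filter on dim probes, 156 with the replicate block of the scanner file numbers and 489 to 766 without 1 array. The median fold change of the 9 genes ranged from 0.03 to 0.21 without 1 array. HLA-B at A_33_P3379947 was at -0.025 with array weights, -0.043 with median scaling and -0.022 with normexp correction. HLA-C was at -0.046, -0.034 and -0.016 in the same order. With median scaling HLA-F at A_33_P3379939 was at -0.029. Leaving out 1 array gave -0.137 to 0.186 and -0.072 to 0.361 for the HLA-B probes A_33_P3379947 and A_33_P3424800, and -0.065 to 0.172 for HLA-C. It gave -0.066 to 0.146 and -0.060 to 0.292 for the HLA-F probes A_33_P3379939 and A_33_P3379967, and -0.229 to 0.664 for PSMB8. For probes that kept their sign it gave 0.0080 to 0.286 for B2M, 0.027 to 0.205 for HLA-E, 0.029 to 0.159 for TAP1, 0.205 to 0.367 for TAP2 and 0.208 to 0.493 for PSMB9. The replicate block of the scanner file numbers lost the RFX5, HSPA5 and CREB1 calls (adjusted p = 0.0698, 0.0719 and 0.106), and no filter on dim probes lost those of HSPA5 and CREB1 (0.0725 and 0.159). The CREB1 call was also lost with the intensity trend, median scaling, the methods' t-test and quantile normalization (adjusted p from 0.0525 to 0.120). With KHSRP siRNA, 0 of 4 arrays read the dimmer KHSRP probe A_24_P134235 as well above background, so that it gives only a bound, at least 5.83-fold lower. Its fitted difference, which rests on those dim signals, missed the threshold with normexp correction (-0.54), with the block of the scanner file numbers (-2.67) and without control replicate 1 (adjusted p = 0.0549), and was -3.12 to -2.31 without 1 array. The cause of these shifts was not tested. The 4 arrays per group limit the precision, and 1 of the 12 probes was near background.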
